A study of Mus musculus with 43 samples.

Results

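The 3 Foxl2-null ovaries of embryonic day 13 (E13) were set against the 3 control ovaries of the same day, 6 of the 43 arrays of the series, over all 18184 genes that the array could name. The null ovaries were labelled Foxl2-/- and the controls Foxl2+/-, whereas the methods of the study describe littermate controls as wild-type, so that whether the controls carried 1 null allele could not be settled. Each array held the whole gonads of 1 mouse, dissected free of adjoining tissue and then amplified once, and the mice were of mixed C57BL/6J, NIH-Swiss/BC and CD1 descent. Ovaries of E16 and of birth (P0), each with 3 Foxl2-null and 3 wild-type arrays, and 3 testes of E13 served for comparison.

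Foxl2 is a forkhead transcription factor of the supporting cells of the ovary, the cells that become granulosa cells. In the fetal mouse ovary it comes on soon after the gonad takes its female course, while the germ cells stop dividing by mitosis and enter meiosis under the influence of retinoic acid. Wnt4 and Rspo1 act beside it in the same cells, and loss of Foxl2 is best known for its later effects, a failure of granulosa cells around birth and a shift of ovarian cells towards Sertoli cell genes in the adult. E13 is therefore close to the earliest day at which loss of the factor could be seen.

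Signals are given below as multiples of the mean of an array, which was the same in all arrays. A change is the log2 value of null minus control after 0.01 of that mean was added to every signal, so that changes of dim genes are understated. A gene was called where the adjusted p of limma (two-sided, Benjamini-Hochberg over all probe sets) was under 0.05. Arrays of the same number were treated as a pair in a second fit, because same-numbered null and control arrays deviated from their group means together. This pairing was read from the same values that the fit then tested, so calls made only in the paired fit are less certain. In bulk tissue, fewer cells of a type and less RNA per cell cannot be told apart.

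Few of the changes called at E13 were called again at the later stages. Of the 18184 genes, 90 (0.495%) were called higher and 164 (0.902%) lower in null ovaries, 254 (1.4%) in all, and the paired fit called 505 (2.78%), which included all 254, 192 higher (1.06%) and 313 lower (1.72%). At E16 and P0, null against wild-type, 0.66% and 0.825% of genes were called. Only 6 genes were called in the same direction at E13, E16 and P0, namely Foxl2, Thbs2, Akr1c14, Adamts16 and Fam184b, which fell, and Slc8a3, which rose. The 3 null and 3 control arrays did not overlap for 72 of the 90 rises and 134 of the 164 falls. Over all genes this held for 2027 (11.1%), 4.99% higher and 6.16% lower in null arrays. The calls rest on the difference between these same arrays, so their larger share follows from the call and is no further evidence. The rises were mostly of dim genes, since in 27 of 90 the brighter group lay above the median probe set (0.256), while this held for 127 of the 164 falls. The 6 ovary arrays fitted on their own gave 2 calls (0.011%), Foxl2 and Khdc1a. The split depended on the scaling of the arrays, with 274 higher and 209 lower after quantile normalization and 243 higher and 148 lower after centring on the median. At an unadjusted p under 0.05 the fit of all arrays gave 2859 genes (15.7%).

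Null 1 and null 3 varied more than any other array. The residual SDs of the null arrays were 0.601, 0.478 and 0.679, against 0.452, 0.395 and 0.479 in the control arrays and 0.311 to 0.569 in the other 37, so that a spread pooled over all arrays is narrower than theirs and the adjusted p values are too small to that extent. Leaving out 1 array at a time gave between 39 calls (without control 2) and 1458 calls (without null 3), which makes the size of the called set uncertain. Khdc1a and Foxl2 were called in all 17 alternative fits, and Thbs2, Akr1c14, Adamts8, Bmp8b, 4930407I10Rik and Cdk6 in all but that of the 6 arrays alone. The 3' to 5' signal ratios of Gapdh, a measure of RNA integrity, were 1.84, 2.02 and 1.63 on the log2 scale in null arrays, against 2.02, 2.04 and 1.78 in control arrays. The groups overlapped in this measure.

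Foxl2 itself stood at 0.606, 1.14 and 1.23 in the null arrays, against 5.32, 7.51 and 10.1 in the control arrays, and at about 0.1 in the testes of the day (0.0913, 0.106 and 0.0975). All 6 arrays matched their labels, and the change was -2.95 ± 0.51 (SE, adjusted p = 0.00204). Its second probe set lay at or under 0.00635 in all null arrays, against 0.136 to 0.186 in the control arrays, and the signal that the first probe set still gave in null ovaries was several times that of testis.

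The genes called at all 3 stages were followed array by array, since these are the changes that the independent arrays of E16 and P0 also showed. Thbs2 encodes thrombospondin 2, a secreted matrix protein that restrains vessel growth. It had signals of 0.408, 0.538 and 0.531 in null arrays, against 1.18, 1.68 and 2.08 in control arrays. The groups were clearly apart, and the change of -1.70 ± 0.25 (adjusted p = 0.000213) was followed by -1.57 at E16 and -1.25 at P0. The other 2 probe sets of Thbs2 changed by -1.38 and -1.32 and were called too (adjusted p = 0.012 and 0.0282). Testes had 0.187, 0.239 and 0.176, still lower than null ovaries.

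Akr1c14, a hydroxysteroid dehydrogenase of the aldo-keto reductase family that acts on progestins and androgens, showed the same pattern. Its signals were 0.341, 0.398 and 0.546 in null arrays, against 0.833, 1.47 and 1.32 in control arrays, and 0.202 to 0.263 in testes. The change was -1.46 ± 0.23 (adjusted p = 0.000426), with -1.35 at E16 and -1.34 at P0, so its size was much the same at the 3 stages.

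Adamts16, a secreted metalloprotease of the thrombospondin-repeat family, had 0.262, 0.317 and 0.472 in null arrays, against 0.695, 0.876 and 0.833 in control arrays. The fall of 1.21 on the log2 scale (SE 0.19, adjusted p = 0.000606) was not a step towards the testis, where the gene was brighter still at 1.03, 1.28 and 1.25. A second, dim probe set of Adamts16 was not called (0.63, adjusted p = 0.417). Fam184b, a gene of unknown role, had 0.134, 0.0682 and 0.357 in null arrays, against 0.497, 0.532 and 0.550 in control arrays (-1.74 ± 0.39, adjusted p = 0.0139), but its other 2 probe sets were not called (0.30 and 0.08). The call of Fam184b was lost without null 2 (-1.22, adjusted p = 0.0951) or control 2 (-1.73, adjusted p = 0.0758).

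The single rise called at all 3 stages was in Slc8a3, a sodium-calcium exchanger of the plasma membrane that is best known from brain and skeletal muscle. Its signals were 0.215, 0.295 and 0.277 in null arrays, against 0.0353, 0.0680 and 0.0814 in control arrays and 0.0351 to 0.0794 in testes. Null ovaries thus stood above both control ovaries and testes. The change was 1.98 ± 0.42 (adjusted p = 0.0123), with 2.97 at E16 and 3.09 at P0. The dim second probe set of Slc8a3 did not show the change (-1.18, adjusted p = 0.243), and the call was lost without control 1 (1.68, adjusted p = 0.08) or control 2 (2.07, adjusted p = 0.0503). Slc8a1 and Slc8a2, the other members of the family, were not called (-0.98 and 0.08).

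**Figure D1:**
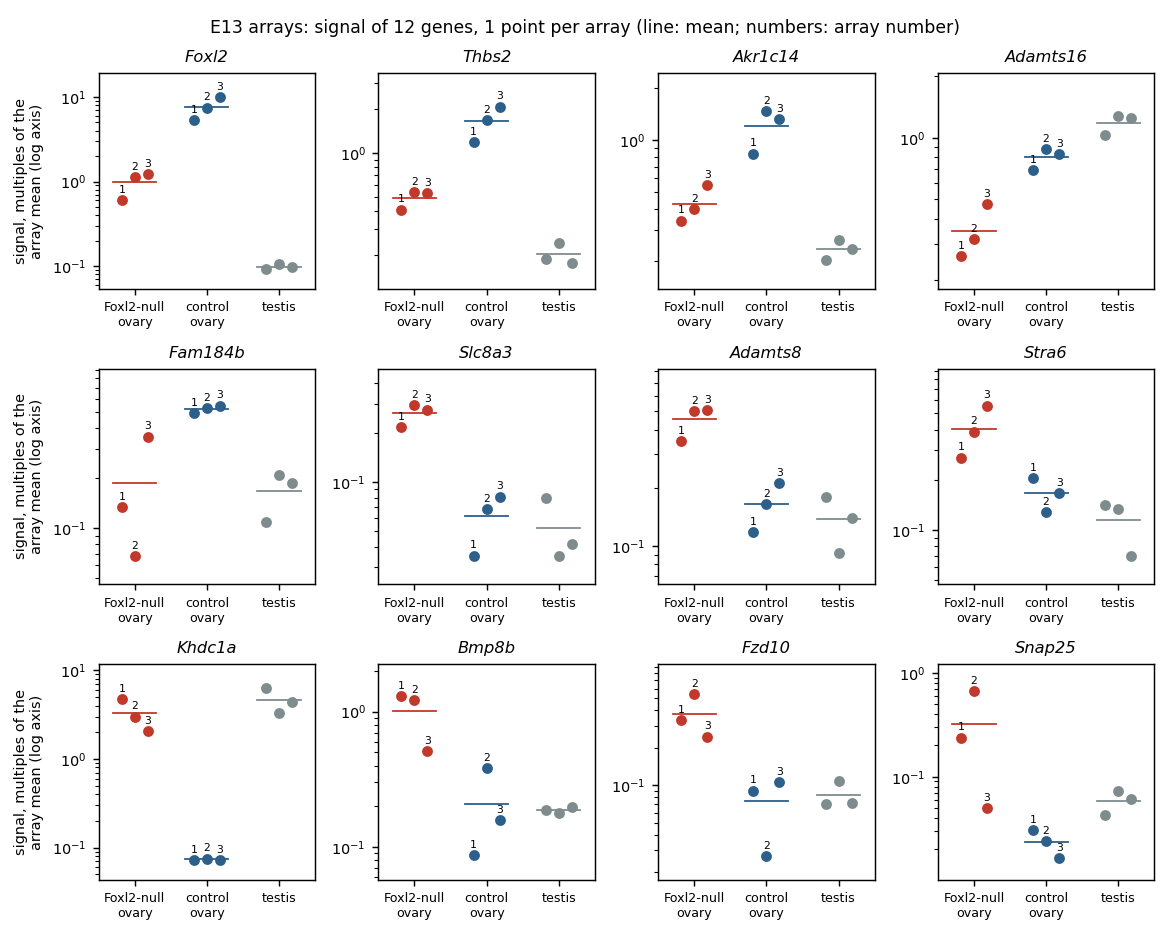
Signal of 12 genes in multiples of the array mean (log axis) in Foxl2-null ovary, control ovary and testis of E13, 1 point per array with its number and a line at the group mean. The null and control arrays do not overlap in any of the 12 panels. Khdc1a in null ovary (2.07 to 4.70) lies beside testis (3.27 to 6.23), whereas Slc8a3, Adamts8 and Stra6 in null ovary lie above both other groups.

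The promoters of those genes are shown because the members moved together at 3 stages. RefSeq start sites (build GRCm38.p6) were in the sequence table for Thbs2, Akr1c14, Fam184b and Slc8a3, and for Gstm6, which was called at E13 and E16. The 250 bases before the start are printed in the direction of the gene, with matches to the forkhead motif GTAAACA or to GTCAAGG, on either strand, in capitals. The letters of neither motif lie within the other.
Thbs2, chr17:14694263-14694512, minus strand: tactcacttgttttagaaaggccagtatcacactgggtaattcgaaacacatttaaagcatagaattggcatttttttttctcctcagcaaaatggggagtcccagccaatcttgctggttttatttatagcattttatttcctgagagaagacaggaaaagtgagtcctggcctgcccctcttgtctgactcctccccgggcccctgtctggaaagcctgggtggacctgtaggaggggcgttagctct
Akr1c14, chr13:4059341-4059590, plus strand: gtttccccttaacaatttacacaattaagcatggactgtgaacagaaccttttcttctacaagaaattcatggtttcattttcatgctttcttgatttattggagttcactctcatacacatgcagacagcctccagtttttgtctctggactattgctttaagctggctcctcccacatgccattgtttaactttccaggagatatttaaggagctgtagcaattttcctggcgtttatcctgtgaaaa
Fam184b, chr5:45639502-45639751, minus strand: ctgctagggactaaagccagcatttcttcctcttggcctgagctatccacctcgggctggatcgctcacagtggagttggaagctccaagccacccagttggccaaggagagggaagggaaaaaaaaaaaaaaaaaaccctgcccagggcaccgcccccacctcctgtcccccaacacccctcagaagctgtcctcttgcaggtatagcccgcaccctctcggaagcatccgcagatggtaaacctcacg
Slc8a3, chr12:81333181-81333430, minus strand: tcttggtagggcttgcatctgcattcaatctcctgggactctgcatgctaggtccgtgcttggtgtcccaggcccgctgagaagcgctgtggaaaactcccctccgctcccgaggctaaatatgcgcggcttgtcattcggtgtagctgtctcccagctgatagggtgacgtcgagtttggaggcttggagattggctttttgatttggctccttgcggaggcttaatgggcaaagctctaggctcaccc
Gstm6, chr3:107943399-107943648, minus strand: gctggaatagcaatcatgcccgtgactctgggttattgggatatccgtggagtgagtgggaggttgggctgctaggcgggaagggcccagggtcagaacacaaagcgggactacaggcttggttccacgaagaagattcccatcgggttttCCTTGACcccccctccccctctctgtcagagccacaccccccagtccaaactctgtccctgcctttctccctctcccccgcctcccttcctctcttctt
Of these 5, only the promoter of Gstm6, at the last of its 3 start sites, held a match, CCTTGAC, which is GTCAAGG read on the opposite strand. In windows reaching from 250 bases before to 50 bases after the start, GTAAACA was found in 3.65% and GTCAAGG in 3.18% of the 32851 promoters of the table, and in 2.97% and 3.24% of the 18101 promoters of genes on the array. The shares were 3.53% for both motifs among 85 promoters of genes that rose, and 3.23% and 4.52% among 155 promoters of genes that fell. A match is only a run of letters, and none of these shares was tested.

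Beyond those 6 genes, 5 were called at E13 and at either E16 or P0 in the same direction. Adamts8, another secreted ADAMTS protease, had 0.347, 0.500 and 0.505 in null arrays, against 0.117, 0.164 and 0.211 in control arrays (1.42 ± 0.22, adjusted p = 0.000381) and changed by 1.48 at E16. Stra6, the receptor by which cells take up vitamin A from its carrier in blood, had 0.271, 0.389 and 0.557 in null arrays, against 0.204, 0.127 and 0.167 in control arrays. The groups of Stra6 lay close together, and its rise of 1.20 ± 0.34 (adjusted p = 0.0498) was near the threshold, with 1.42 at E16.

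Gstm6, a glutathione transferase, had 0.0291, 0.119 and 0.0872 in null arrays, against 0.111, 0.497 and 0.248 in control arrays, which overlap. It fell by 1.67 (SE 0.46, adjusted p = 0.0472) and by 2.89 at E16. In testes Gstm6 was far brighter (2.01, 1.45 and 1.25). The unnamed transcript 4930407I10Rik had 0.0836, 0.109 and 0.120 in null arrays, against 0.399, 0.378 and 0.259 in control arrays (-1.63, adjusted p = 0.000265), and Alox12e, a lipoxygenase named here after its values were seen, changed by -1.31 (adjusted p = 0.0303). Both were called at P0 as well. The E13 call of Alox12e was lost without null 1, null 2, control 1 or control 2 (adjusted p = 0.0709 to 0.108).

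The other calls of E13 were not called in the same direction later. Of the 90 rises, 48 had the same sign at E16 (53.3%, against 46.1% of all genes above 0) and 49 at P0 (54.4%, against 45.6%). Of the 164 falls, 128 were below 0 at E16 (78%, against 53.9% of all genes) and 100 at P0 (61%, against 54.4%). The median change of the falls was -0.97 at E13, -0.15 at E16 and -0.06 at P0, and that of the rises 1.64, 0.05 and 0.06. These genes were picked by their E13 change. Smaller medians at the other stages follow in part from that choice and are not by themselves evidence that the changes faded. Over all genes, the change itself differed between E13 and E16 for 7 (0.0385%, 20 in the paired fit) and between E13 and P0 for 59 (0.324%, 119 in the paired fit). Among the 90 rises this held for 3 against E16 and 6 against P0, and among the 164 falls for 2 and 8. For the rest of the E13 calls the stages were not shown to differ.

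Several genes that respond to loss of Foxl2 at later stages were not called at E13. Thbs1, thrombospondin 1, had 0.124, 0.194 and 0.103 in null arrays, against 0.0782, 0.0984 and 0.161 in control arrays, and changed by 0.31 at E13, -2.12 at E16 and -2.54 at P0. The difference between E13 and P0 was 2.85 ± 0.56 (adjusted p = 0.012), whereas that of Thbs2 was -0.44 (adjusted p = 0.639). Smad3, which carries activin and TGF-beta signals to the nucleus, changed by -0.24, -0.52 and -1.17 at the 3 stages, and Col8a1, a short-chain collagen of basement membranes, by 0.57, -2.01 and -5.04. For both the step between E13 and P0 was called (adjusted p = 0.00858 and 0.00252). Col8a1 was near the floor at E13, at 0.0691, 0.0278 and 0.00616 in null arrays, against 0.0283, 0.0125 and 0.00702 in control arrays. A fall of Col8a1 could hardly have shown at that stage.

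Nr5a2, Esr2 and Slc26a7 were named after their values were seen, as genes of the granulosa cell or the ovary that were called lower at P0 and neither at E13 nor at E16. Nr5a2, a nuclear receptor needed for ovulation, changed by 0.52, -0.33 and -2.96 at E13, E16 and P0, Esr2, the beta receptor for oestrogen, by 0.69, -0.22 and -2.91, and Slc26a7, an anion transporter, by -0.06, -0.90 and -3.40. For each the difference between E13 and P0 was called (adjusted p = 0.00452, 0.0132 and 0.00205), and that between E13 and E16 was not (0.654, 0.691 and 0.609).

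Some genes of E16 and P0 leaned the same way at E13 without being called. Ntn4, a netrin that guides axons and binds basement membrane, changed by -0.72, -2.92 and -2.17 at E13, E16 and P0, and its E13 arrays did not overlap (0.188, 0.121 and 0.161 in null, 0.196, 0.237 and 0.379 in control). Clstn2, a synaptic adhesion protein, changed by -0.89, -1.60 and -2.07 and was called at E13 only in the paired fit (adjusted p = 0.121 unpaired, 0.0464 paired). Fbn2, a fibrillin of elastic fibres, changed by -0.48, -0.86 and -0.95. None of the 3 passed the test of the difference between E13 and a later stage (adjusted p = 0.176 to 0.608).

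**Figure D2:**
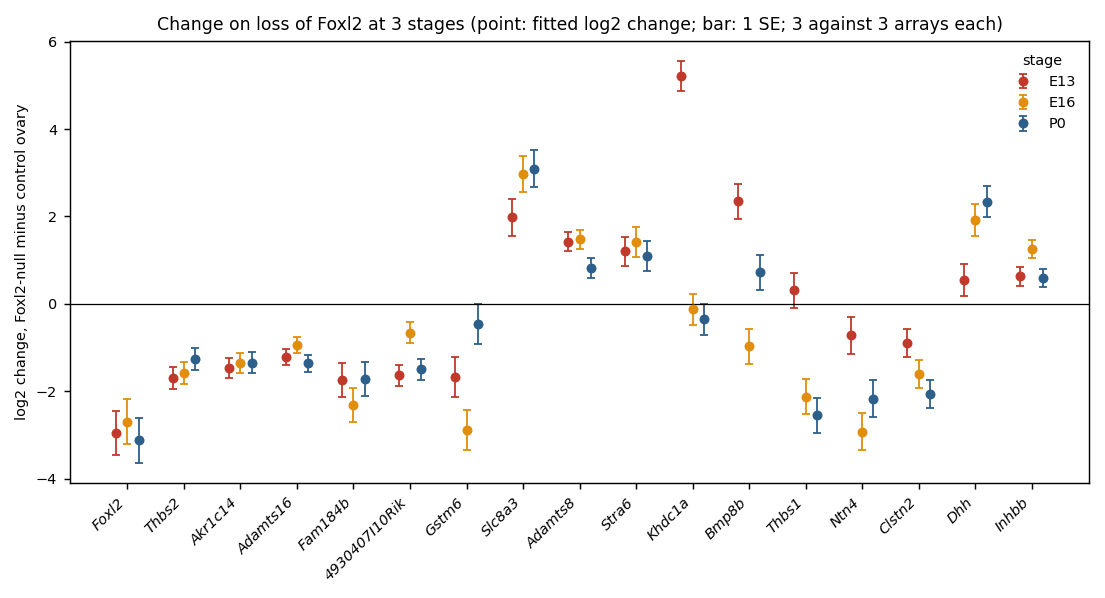
Fitted log2 change, Foxl2-null minus control ovary, of 17 genes at E13, E16 and P0, with bars of 1 SE and 3 against 3 arrays at each stage. Thbs2, Akr1c14, Adamts16, Fam184b and Slc8a3 keep their sign and rough size, and Khdc1a (5.21, -0.12 and -0.35) stands out at E13 only. Bmp8b (2.35, -0.97 and 0.72) was called at E13 only, but its difference between E13 and P0 was not called. Thbs1 (0.31, -2.12 and -2.54) and Ntn4 (-0.72, -2.92 and -2.17) are lower at both later stages.

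Genes of the supporting cells of the ovary were otherwise not called. Of 23 genes of fetal ovary somatic cells, Foxl2 alone was called, and their median change was -0.14, beside 0.05 for all genes. Rspo1, which strengthens Wnt signals, had 4.34, 6.82 and 8.01 in null arrays, against 4.92, 5.74 and 6.57 in control arrays. Wnt4, the female-course Wnt ligand, had 1.47, 2.25 and 2.93 in null arrays, against 2.33, 1.37 and 1.48 in control arrays. In both genes the groups overlapped. Fst, which binds and blocks activin, had 1.92, 1.32 and 2.45 in null arrays, against 2.18, 2.61 and 1.98 in control arrays, and Runx1, a factor that helps keep the identity of these cells, 1.72, 2.94 and 3.17, against 3.14, 2.84 and 3.20. All 4 were brighter in each of the 6 ovary arrays than in any testis of the day.

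Null 1 was the low array of this list. Its summed signal was 61.8, 84.8 and 107 in null 1, 2 and 3, against 89.8, 88.8 and 98.1 in the control arrays, and 21 of the 23 genes were lower in null 1 than in control 1, with Irx3, a homeobox gene of these cells, at 1.15 and 5.002. In pair 3 only 6 of the 23 were lower. Kitl, the ligand by which somatic cells sustain germ cells, had 3.12, 3.92 and 5.83 in null arrays, against 7.01, 6.02 and 4.78 in control arrays (-0.50, adjusted p = 0.284), again lowest in null 1. The same array held the largest sums of nerve and mesonephric genes (8.26 and 18.8). The median mesonephric level was highest in control 1, however (-1.23, against -1.39 in null 1). The part of either tissue in these low values was not tested.

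None of 24 Sertoli cell genes was called. Their median change was 0.22, and 17 of them were above 0, against 54.8% of all genes. Sox9, the switch gene of the testis, had 0.411, 0.263 and 0.399 in null arrays, against 0.529, 0.224 and 0.379 in control arrays, and 3.56, 2.96 and 2.32 in testes. In this probe set the null values fell within the range of the controls. Its other probe sets were not called either (0.57 and 0.08, adjusted p = 0.243 and 0.94). The first of these was higher in the null array of each pair, with groups that overlapped (0.537, 0.405 and 0.239 in null, 0.326, 0.207 and 0.226 in control). Amh, Dhh and Cst9 were likewise not called (-0.08, 0.55 and 0.01). Dhh, the hedgehog ligand of Sertoli cells, was higher in the null array of each pair (0.0799, 0.0841 and 0.116 in null, 0.0480, 0.0573 and 0.0763 in control), far below testis (3.73 to 4.09), and changed by 1.92 at E16 and 2.34 at P0. The summed signal of the 24 genes was 15.8, 15.5 and 15.1 in null arrays, against 10.7, 12.5 and 14.9 in control arrays, and the groups did not overlap. Etv5, an ETS factor, made up 5.64, 2.47 and 2.79 of these sums in null arrays, against 1.85, 1.58 and 2.97 in control arrays.

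Steroidogenic cell genes were at ovarian levels in both genotypes. None of 7 was called, and Star, which brings cholesterol into mitochondria, had 0.298 to 0.413 in null arrays, against 0.367 to 0.595 in control arrays and 2.22 to 6.70 in testes. Cyp17a1, the enzyme that turns progestins into androgens, stood at or under 0.0996 in all 6 ovary arrays. Hsd3b1, which makes progesterone, was called only in the paired fit (0.0667, 0.120 and 0.215 in null arrays, 0.190, 0.378 and 0.287 in control arrays, adjusted p = 0.075 unpaired and 0.0388 paired).

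Among 24 genes of BMP and activin signalling, 1 was called higher and 1 lower, beside 0.495% and 0.902% of all genes, with a median change of -0.04. Bmp8b, a BMP ligand known in mice for its part in founding the germ line, had 1.302, 1.21 and 0.513 in null arrays, against 0.0877, 0.382 and 0.157 in control arrays and 0.177 to 0.198 in testes. Null ovaries were the brightest of the 3 groups, and the change of 2.35 ± 0.40 (adjusted p = 0.00183) differed from that at E16, -0.97, by 3.31 ± 0.57 (adjusted p = 0.0126). The difference of Bmp8b between E13 and P0 was not called. Its second probe set, near background, did not change (-0.17, adjusted p = 0.788). Bmpr2, the type 2 receptor of BMPs, had 2.38, 2.37 and 2.14 in null arrays, against 4.16, 3.89 and 2.57 in control arrays (-0.59 ± 0.14, adjusted p = 0.0189), a call that was lost without control 1 or control 2 (adjusted p = 0.13 and 0.137). Of its partner Bmpr1a all 6 probe sets were lower in null ovaries and none was called (-0.31 to -0.75). Bmp2, a ligand made by the supporting cells, had 1.03, 0.845 and 1.66 in null arrays, against 1.40, 1.08 and 1.36 in control arrays. Inhbb, the beta-B chain of activin and inhibin, had 1.31, 2.74 and 1.997, against 1.21, 1.31 and 1.21 (0.63, adjusted p = 0.103), and was called at E16 (1.26).

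Of 17 thrombospondins, ADAMTS proteases and fibrillar matrix genes, Adamts8 rose and Thbs2, Adamts16 and Adamts19 fell, beside 0.495% and 0.902% of all genes, and the median change was 0.02. Thbs2, Adamts16 and Adamts8 are among the genes that the study lists from these arrays, so their calls are not independent evidence. Adamts19, an ADAMTS protease of the fetal ovary, was dim, at 0.0215, 0.0547 and 7.53e-06 in null arrays, against 0.110, 0.199 and 0.0430 in control arrays (-2.01, adjusted p = 0.0461). Its call was lost with a pseudocount of 5% and without null 1, null 3, control 1 or control 2, and the change was -1.28 without null 3 (adjusted p = 0.151). Among 14 steroid-metabolising reductases and glutathione transferases, Akr1c14 and Gstm6 fell, beside 0.902% of all genes. None of 11 Wnt signalling targets was called. Of the genes that the study lists as lower on loss of Foxl2, 3 of 15 were called lower at E13 (median -0.55), beside 0.902% of all genes. Of those it lists as higher, 2 of 18 were called higher (median 0.58, all 18 above 0), beside 0.495% of all genes. Those lists were drawn up on these arrays and are not independent evidence of their direction.

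The largest change of all was in Khdc1a, a KH-domain gene of the germ line and early embryo that neighbours its relatives in a cluster. Its signals were 4.70, 3.005 and 2.07 in null arrays, against 0.0722, 0.0750 and 0.0727 in control arrays, and 6.23, 3.27 and 4.44 in testes of the day. In the other 34 arrays of the series it never passed 0.111. The change of 5.21 ± 0.35 (adjusted p = 1.12e-12) was called in all 17 alternative fits, and it differed from the change at E16 (-0.12) by 5.34 and from that at P0 (-0.35) by 5.56 (adjusted p = 1.92e-08 and 6.01e-09). Control ovaries thus lacked at E13 a signal that null ovaries and testes had.

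Genes of meiosis were mostly lower in null ovaries. Of 32 measured genes of meiotic entry, chromosome axis and recombination, 2 were called lower and none higher, beside 0.902% and 0.495% of all genes. Below 0 were 26 of the 32, against 45.2% of all genes, and the median was -0.94, beside 0.05 for all genes. The paired fit called 9 lower and none higher, beside 1.72% and 1.06% of all genes. In 19 of the 32 the null array was lower in all 3 pairs, which held for 14.8% of all genes. The median was -0.72, -0.76 and -1.04 in pairs 1, 2 and 3, and -0.07 at E16 and 0.10 at P0.

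The level of these genes varied with the array number as well as with the genotype. The summed signal of the 32 was 22.2, 56.3 and 29.4 in null arrays, against 30.0, 77.2 and 55.3 in control arrays, so that both arrays numbered 1 were low, both numbered 2 were high, and the groups overlapped. In 25 of the 32 the highest of the 6 arrays was control 2, which was the highest array for 15.7% of all genes. The median change of -0.94 was -0.55 without control 2, -0.52 without null 1, and -0.26 where noisier arrays counted less. The labels do not say what embryos of the same number share.

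Among genes of meiotic entry, Ythdc2, an RNA helicase that germ cells need to leave mitosis, had 0.317, 0.298 and 0.328 in null arrays, against 0.446, 0.870 and 0.726 in control arrays (-1.04 ± 0.26, adjusted p = 0.0251). Its call was lost without null 1, null 2 or control 2 (adjusted p = 0.0519, 0.0555 and 0.179). Meioc, its partner protein, had 0.276, 3.59 and 1.296 in null arrays, against 1.74, 6.57 and 3.29 in control arrays, and was called only in the paired fit (-1.61, adjusted p = 0.0971 unpaired, 0.0168 paired). Stra8, the gene that retinoic acid turns on at entry, had 0.689, 11.6 and 3.62 in null arrays, against 3.35, 13.1 and 10.9 in control arrays. The pairs of Stra8 differed by -2.27, -0.17 and -1.59, and it was called in neither fit (adjusted p = 0.447 unpaired, 0.375 paired). Cyp26b1, which breaks down retinoic acid, had 0.707, 0.272 and 0.222 in null arrays, against 0.418, 0.132 and 0.142 in control arrays, and 3.98 to 4.82 in testes (0.78, adjusted p = 0.222).

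All 11 genes of the chromosome axis, which holds sister and homologous chromosomes together in meiosis, were below 0, with a median of -0.98, and 9 of them were lower in all 3 pairs. None was called without the pairing and 4 were called lower with it, beside 0.902% and 1.72% of all genes. Sycp3, a lateral element protein, had 0.776, 2.47 and 1.43 in null arrays, against 1.75, 6.64 and 3.46 in control arrays, and its 3 pairs differed by -1.16, -1.42 and -1.26 (adjusted p = 0.0685 unpaired, 0.0168 paired). The other 3 were Sycp1, Sycp2 and Tex12, which build the same structure (paired adjusted p = 0.0176, 0.00361 and 0.0327). Syce2, a central element gene, was bright and hardly differed (10.1, 14.3 and 10.4 in null arrays, 9.27, 14.6 and 13.6 in control arrays).

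Among 14 genes of recombination, Spo11, which makes the double-strand breaks of meiosis, had 0.0290, 0.0584 and 0.00879 in null arrays, against 0.0770, 0.183 and 0.190 in control arrays (-2.02 ± 0.47, adjusted p = 0.0176, and 0.112 without control 2). Dmc1, the meiotic recombinase, and Prdm9, which places the breaks, were called in the paired fit alone (-1.19 and -1.47, paired adjusted p = 0.0396 and 0.0316). Outside the 3 lists, Tex101, a surface protein of germ cells, had 0.00658, 1.02 and 0.259 in null arrays, against 0.814, 2.08 and 1.24 in control arrays (-2.96 ± 0.76, adjusted p = 0.0319). Taf7l, a germ cell form of a general transcription factor, was called in the paired fit alone (-2.09, paired adjusted p = 0.00895).

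Of 14 general germ cell genes, 1 (Tex101) was called lower and 11 were below 0, beside 0.902% and 45.2% of all genes. Their median was -0.57, and their difference from the meiotic genes was not tested. Dazl, an RNA-binding protein of all germ cells, had 4.34, 4.91 and 3.25 in null arrays, against 3.79, 8.83 and 7.45 in control arrays (-0.61, adjusted p = 0.414). Ddx4, the germ cell helicase, had 0.876, 1.38 and 1.04, against 1.02, 2.63 and 2.21 (-0.74, adjusted p = 0.530). In pair 1 the 14 germ cell genes had a median of 0.09, while the meiotic genes had -0.72. In pairs 2 and 3 both groups were below 0, the germ cell genes at -0.60 and -1.03.

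**Figure D3:**
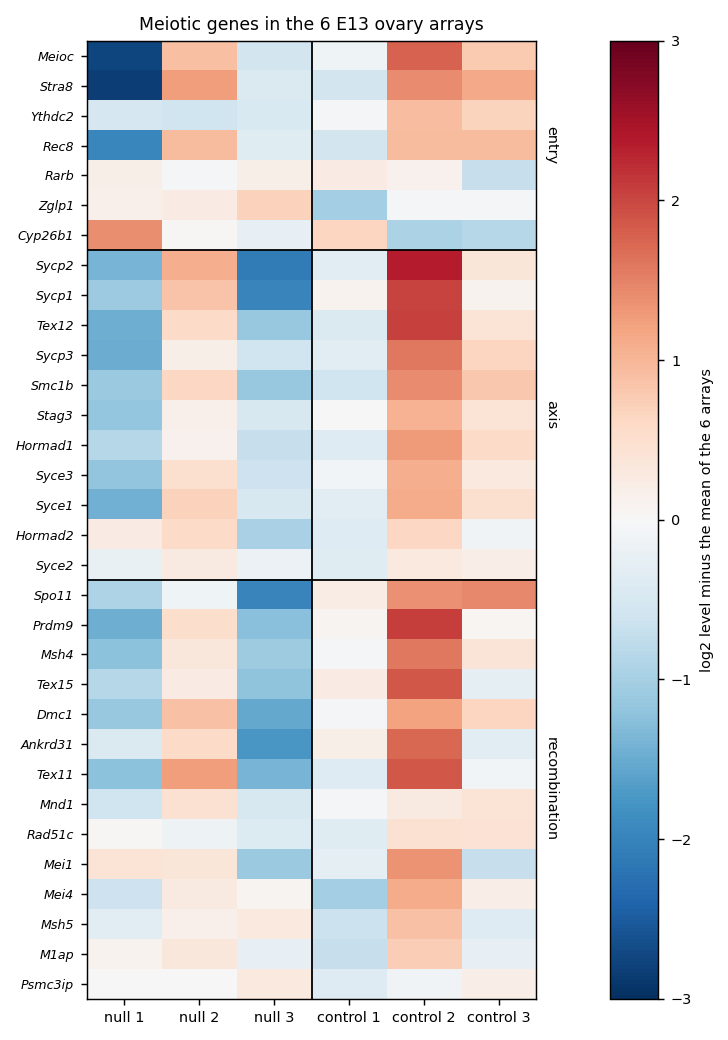
Log2 level of the 32 measured meiotic genes in the 6 E13 ovary arrays, each row minus its mean over the 6 arrays (colour scale in log2 units), grouped as entry, chromosome axis and recombination. Control 2 is the highest column for 25 of the 32 genes, null 1 and null 3 are low, and null 2 lies above null 1 and null 3 for most of them.

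Tissue from outside the gonad differed between the 6 arrays and was read array by array. The summed signal of 42 striated muscle genes was 14.0, 41.0 and 14.7 in null arrays, against 13.4, 13.9 and 15.5 in control arrays and 9.66 to 23.9 in the other 37 arrays. Only null 2 stood out. In that array Myh3, the embryonic muscle myosin, reached 7.45, against 0.115 to 0.657 in the other 5, Tnnc2, fast troponin C, 4.66, and Actc1, cardiac actin, 2.10. None of the 42 genes was called, since the other null arrays lay at the level of the controls.

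Null 1 held more signal of nerve and chromaffin cells. The 19 nerve and chromaffin genes summed to 8.26, 3.75 and 2.47 in null arrays, against 3.17, 2.56 and 2.51 in control arrays, and 13 of them were highest in null 1, as were 34% of all genes. In the other 37 arrays of the series this sum ran from 2.46 to 15.8, so null 1 lay within their range. Chgb, a protein of secretory granules, was 2.42 in null 1 and at most 0.103 in the other 5 arrays, and Nefm, a neurofilament, 0.618 in null 1 and at most 0.174. Six2, the marker of nephron progenitors, was 3.44 in null 1 and at most 0.156 elsewhere. The 12 genes of mesonephric duct and tubule summed to 18.8, 10.2 and 8.85 in null arrays, against 11.7, 7.99 and 12.4 in control arrays, and Cldn6, Epcam and Cdh1, genes of epithelia in general, made up most of each sum (6.89, 6.45 and 2.37 in null 1). The other 37 arrays ran from 1.44 to 11.7 in this sum, which null 1 and control 3 passed. The median log2 level of the 12 was -1.39, -2.39 and -2.49 in null arrays, against -1.23, -2.59 and -2.81 in control arrays, so that by this measure control 1 was the highest array. Cdh16, a cadherin of renal tubules, was high in both arrays of pair 1 (0.488 in null, 0.958 in control).

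Among the lists of carried-over tissue 1 gene was called, 1 of the 19 nerve and chromaffin genes, beside 1.4% of all genes. Of the 254 calls of E13, 101 were called without null 1 (164 calls in all) and 169 without null 2 (339 calls in all). Snap25, a synaptic vesicle fusion protein, was the one nerve gene called, with 0.238, 0.670 and 0.0501 in null arrays, against 0.0306, 0.0238 and 0.0164 in control arrays (2.71 ± 0.64, adjusted p = 0.0206). Its second probe set rose as well, with 0.366, 0.134 and 0.0864 in null arrays (2.29, adjusted p = 0.0244). The first probe set of Snap25 was highest in null 2 and the second in null 1, where the nerve list was highest. The part of carried-over nerve tissue in the rise of Snap25 was not tested. The paired fit, which called 2.78% of all genes, added 6 genes of the carried-over tissues. Chgb and Six2 (paired adjusted p = 0.0395 and 0.0175) were high in null 1 alone. Matn3 of cartilage, Cyp11b2 of the adrenal cortex and Ahsg of liver rose (1.86, 1.10 and 1.07, paired adjusted p = 0.0392, 0.0355 and 0.0394), each highest in null 1, and Neb, a giant protein of the muscle filament, fell (-1.59, paired adjusted p = 0.0438), lowest in null 3.

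**Figure D4:**
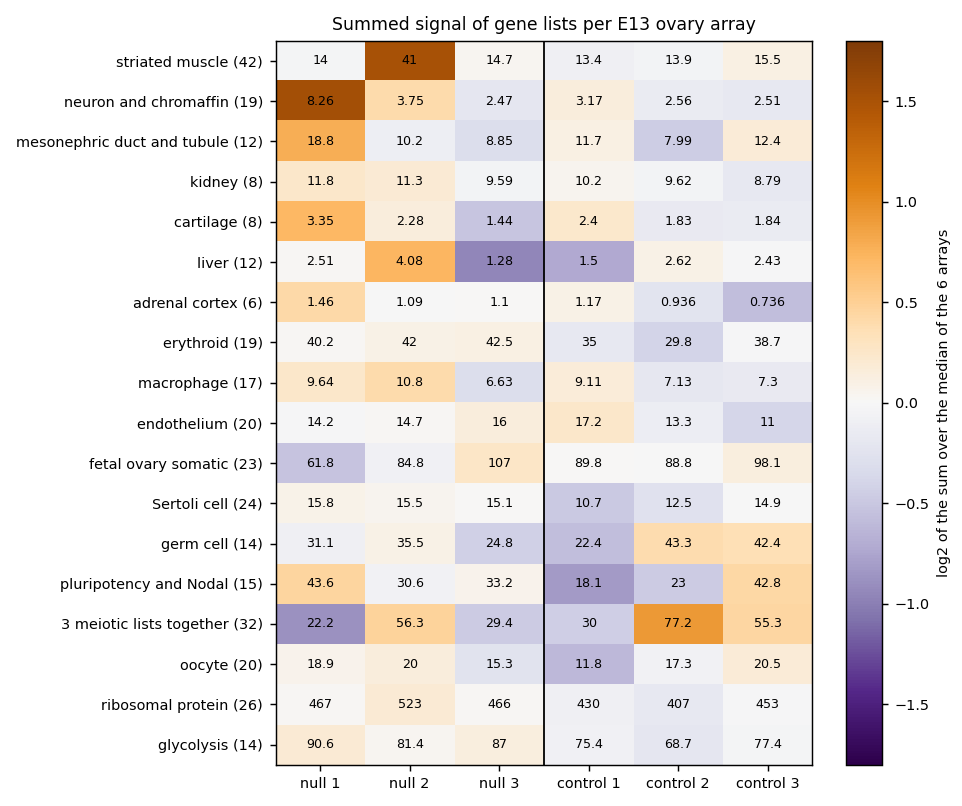
Summed signal, in multiples of the array mean, of 18 gene lists in the 6 E13 ovary arrays, with the number of genes in brackets; colours show the log2 of each sum over the median of the 6. Striated muscle is high in null 2 alone (41.0) and the nerve sum in null 1 (8.26). The mesonephric sum is also highest in null 1 (18.8), mostly from Cldn6, Epcam and Cdh1. The meiotic sums follow the array number, with null 2 and control 2 the highest.

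The other large rises fell into no list. Fzd10, a Wnt receptor, had 0.336, 0.540 and 0.246 in null arrays, against 0.0905, 0.0268 and 0.106 in control arrays (2.28 ± 0.45, adjusted p = 0.00748, and 0.0947 without control 2), and never passed 0.0992 in the 34 arrays of other days. Vgll2, a cofactor of TEAD factors known from muscle, had 1.21, 0.338 and 0.638 in null arrays, against 0.257, 0.106 and 0.267 in control arrays. Its highest signal lay in null 1, as did that of 34% of all genes. The part of carried-over tissue in its rise was not tested. Vgll2 stayed at or under 0.0553 in the other 37 arrays, so that both genotypes at E13 exceeded all of them. Ftcd, an enzyme of histidine and folate metabolism, had 0.538, 0.433 and 0.427, against 0.246, 0.0638 and 0.158. Crxos, Fbll1 and 2210409E12Rik completed the 12 largest rises (1.90, 1.31 and 1.21), each lowest in null 3 among the null arrays. Each of these calls was lost without null 1, null 2, control 1 or control 2 (adjusted p = 0.0546 to 0.204). The second probe sets of Crxos and Fbll1 were not called (0.51 and 0.23, adjusted p = 0.374 and 0.713).

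Several of the larger falls were called at neither E16 nor P0. Greb1l, a gene needed for kidney and genital tract development, had 0.156, 0.349 and 0.157 in null arrays, against 0.939, 0.808 and 0.384 in control arrays (-1.65 ± 0.32, adjusted p = 0.00696, and 0.0554 or 0.0636 without control 1 or control 2), and changed by -0.36 at E16 and 0.35 at P0, of which the difference from P0 alone was called (adjusted p = 0.0377, and 0.35 for E16). Its second probe set changed by -0.82 (adjusted p = 0.0891). Cdk6, a kinase of the G1 phase named here after its values were seen, had 0.426, 0.497 and 0.406 in null arrays, against 1.18, 1.19 and 0.839 in control arrays (-1.24, adjusted p = 0.000381), and changed by -0.26 at E16 and -0.22 at P0. Of its other 2 probe sets 1 was called (-0.93, adjusted p = 0.0448) and 1 was not (-0.70, adjusted p = 0.0827). Aldh1a1, a retinaldehyde dehydrogenase named in the same way, had 0.995, 2.70 and 2.19 in null arrays, against 2.45, 4.73 and 3.31 in control arrays (-0.90, adjusted p = 0.0482), and 8.20 to 11.0 in testes. Its call was lost in 9 of 17 alternative fits, quantile normalization and median centring among them, and the change was -0.47 without null 1 (adjusted p = 0.342). Aldh1a1 changed by -0.28 at E16 and -0.11 at P0, and for it as for Cdk6 the difference between E13 and a later stage was not called (adjusted p = 0.0891 to 0.567).

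Plekhb1, Ppm1e, Tmem89, Wwox, Rab3a and 1700113H08Rik made up the rest of the 12 largest falls (-1.24 to -2.13). In Rab3a, a small GTPase of vesicle release, null 3 alone made most of the change, at 0.417, 0.378 and 0.0134 in null arrays, against 0.479, 0.701 and 0.933 in control arrays, and its second probe set did not change (-0.08). Wwox and 1700113H08Rik were likewise lowest in null 3 (0.0296 and 0.0248).

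A shared feature of the falls was the length of the genes. The 163 falls with a known span had a median span of 69.5 kb from start to end, and 38.7% of them were over 100 kb, against 14.5 kb and 8.89% of the rises and 20.2 kb and 12.4% of all genes. Examples, named after their values were seen, are Macf1, a linker of microtubules and actin (2.32, 2.67 and 2.22 in null arrays, 4.10, 3.36 and 2.97 in control arrays), Dync1h1, the heavy chain of dynein (1.85, 2.52 and 2.07, against 3.09, 3.22 and 2.85), and Mtor, a kinase of growth control (1.52, 2.11 and 1.19, against 2.27, 3.07 and 2.23). Their changes were -0.52, -0.52 and -0.67, all called at E13 and neither at E16 nor at P0. All 3 calls were lost after median centring, with the mean of all probe sets, and without null 1, control 1 or control 2 (adjusted p = 0.0691 to 0.234 without 1 of these arrays). Over the 2246 genes longer than 100 kb, the median level minus the control mean was -0.02, -0.07 and -0.24 in null arrays, against 0.08, 0.07 and -0.13 in control arrays. Null 3 was the lowest array in this measure and control 3 the next, so the pair showed in long genes as well. The falls were also brighter than the rises, with a median of 0.835 against 0.149 in the brighter group, and the part of length or brightness in the calls was not tested.

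**Figure D5:**
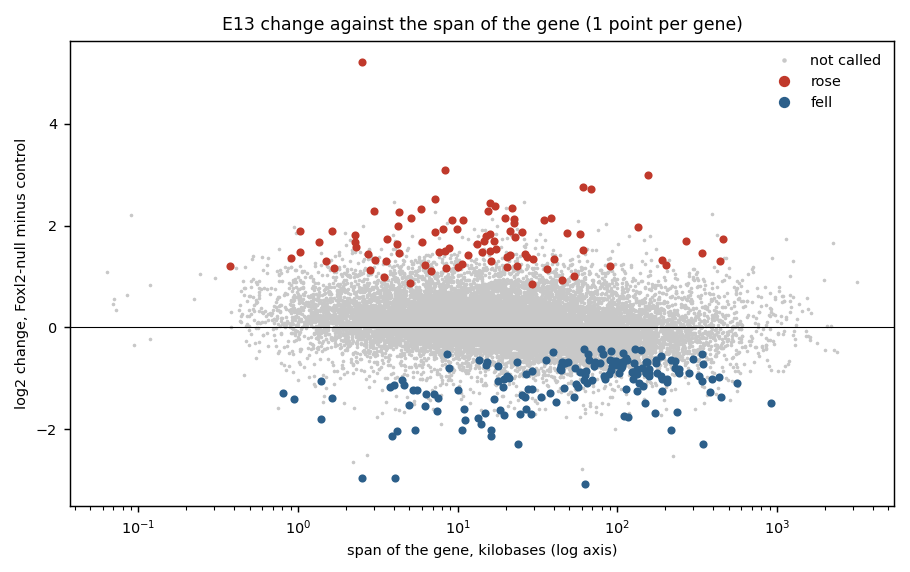
Log2 change at E13, Foxl2-null minus control ovary, against the span of each gene in kilobases (log axis), 1 point per gene, with called rises in red, called falls in blue and genes not called in grey. Many of the modest falls lie beyond 100 kilobases, where few rises do (38.7% of the falls and 8.89% of the rises).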

How the data were processed

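Gonads of individual mice were hybridised singly to Affymetrix MOE430 v2 arrays after MELT extraction (Ambion), 1 round of linear amplification with Pico Ovation (Nugen) and FL-Ovation biotin labelling. The deposited intensities were linear and positive; the authors obtained them with plier, run in R, and brought each array to the same mean, 15970000. GCOS 1.3 is named in the submitters' processing notes without a role, and a genome build is not given in the sources used here.

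After removal of 64 control probe sets from 45071, 45007 were tested, of which 34927 carried 1 gene symbol, 930 several and 9150 none, and a gene was read from its brightest probe set, averaged over the 43 arrays. Log2 values were taken after adding 1% of the common mean (159700). The 43 arrays entered 1 fit of 15 group means (limma 3.58.1 in R 4.3.3, eBayes with trend, 28 residual degrees of freedom). The fitting script was tested on simulated data. The number of arrays limits the precision. Deviations of same-numbered null and control arrays correlated at 0.132, 0.135 and 0.158, and other combinations at -0.153 to 0.0333, so array numbers were taken as pairs from the data, not from the labels. Deviations cancel out within a group, so the lower values of the other combinations follow in part from the higher ones and are not separate support. The program Focus used by the study was not used here.

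Genes named in the text are Foxl2, the called genes with the 12 largest changes in each direction (null and control arrays apart, brighter group above the median probe set), up to 4 members of each of 39 gene lists by adjusted p, members of the exchanger, Khdc1, meiotic, BMP and thrombospondin lists, the members of carried-over tissue lists with the largest gap between arrays, the listed cell type markers, and those said to be named after their values were seen. Members and lists were chosen with earlier results of these data known. Promoters came from RefSeq (GRCm38.p6), which held 201 of the 254 called genes. Alternatives changed the normalization, centring, pseudocount, filter, arrays fitted, pairing, array weights, variance moderation, probe set choice and arrays left out.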

Additional observations from a re-analysis of the deposited data

Results flagged for a closer look

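Changes of 9 named genes on loss of Foxl2 at E13 differed from those at a later stage by the test of the difference (limma, adjusted over all probe sets). For Khdc1a, the E13 change exceeded that at E16 by 5.34 ± 0.49 (SE, adjusted p = 1.92e-08) and that at P0 by 5.56 ± 0.49 (adjusted p = 6.01e-09), and it was higher in null ovary in 3 of 3 pairs at E13. For Bmp8b, the E13 change exceeded that at E16 by 3.31 ± 0.57 (adjusted p = 0.0126), and its difference from P0 was not called. Greb1l was lower at E13 and not at P0, a difference of -1.99 ± 0.46 (adjusted p = 0.0377).

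The other differences lay between E13 and P0 and belonged to genes that were called lower in null ovaries at P0 and were not called at E13. They were 0.93 ± 0.17 for Smad3 (adjusted p = 0.00858), 2.85 ± 0.56 for Thbs1 (adjusted p = 0.012), 5.61 ± 0.92 for Col8a1 (adjusted p = 0.00252), 3.48 ± 0.61 for Nr5a2 (adjusted p = 0.00452), 3.60 ± 0.72 for Esr2 (adjusted p = 0.0132) and 3.34 ± 0.54 for Slc26a7 (adjusted p = 0.00205). Thbs1, Col8a1, Esr2 and Slc26a7 lay below the median probe set (0.256) at E13 in both genotypes, which limits how far they could fall at that stage.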

How the results depend on the processing

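The number of called genes depended on the processing. Against 254 calls at E13, there were 483 after quantile normalization (211 of them shared), 391 after median centring (218 shared, with a median of all genes of 0.11 in place of 0.05), 2 with the 6 ovary arrays alone and 3235 with array weights. The replicate block, which uses the pairing of the array numbers, gave 505, and 69 with the 6 arrays alone. With that block and, chosen after seeing the data, pair 1, 2 or 3 left out, it gave 120, 148 and 1182. Leaving out 1 array gave 39 to 1458. For the difference between E13 and E16, with 7 calls, there were 24 after quantile normalization, 12 with a pseudocount of 5%, 20 with the replicate block for the pairing, 803 with array weights, 12 with the mean of all probe sets, 3 with the 12 arrays of the 4 groups alone, and 4 to 286 without 1 array. For the difference between E13 and P0, with 59 calls, there were 97 after quantile normalization, 94 after median centring, 36 with probe sets above the median, 119 with the replicate block for the pairing, 895 with array weights, 3 with the 12 arrays alone, and 23 to 319 without 1 array. The summed muscle signal of null 2 lay 1.55 above the median of the other 5 on the log2 scale, and 1.64 after quantile normalization. The cause of these shifts was not tested.

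Of 37 named genes called at E13, none changed sign in any of the 17 alternatives. All 37 stayed called with the block, 35 after quantile normalization, 33 after median centring, 20 with the mean of all probe sets and 11 without control 2. The call of Stra6 was lost without null 2, null 3 or any 1 control, that of Gstm6 without null 1, control 2 or control 3, that of Tex101 without null 1, control 1 or control 2, those of Snap25 without any array other than null 3 and control 3, and that of Vgll2 without null 1, control 1 or control 2. The dim signal of many rises limits their precision.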

Other observations

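Genes of pluripotency and Nodal signalling, which germ cells shed as they differentiate, had medians opposite in sign to those of the meiotic genes in pairs 1 and 2. Their median change was 1.43, 0.35 and -0.52 in pairs 1, 2 and 3, and none of the 15 was called. Nanog, a pluripotency factor, had 3.72, 1.35 and 2.01 in null arrays, against 0.808, 0.459 and 1.85 in control arrays (1.28, adjusted p = 0.166), and Pou5f1 had 2.24, 1.43 and 1.16, against 0.820, 1.10 and 2.44. The summed signal of the 15 was 43.6, 30.6 and 33.2 in null arrays, against 18.1, 23.0 and 42.8 in control arrays, which overlap through control 3.

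Housekeeping groups lay a little higher in null ovaries without a call. The 14 glycolysis genes summed to 90.6, 81.4 and 87.0 in null arrays, against 75.4, 68.7 and 77.4 in control arrays, and 26 ribosomal protein genes to 467, 523 and 466, against 430, 407 and 453, so that the groups of arrays did not overlap in either sum. The 19 erythroid genes summed to 40.2, 42.0 and 42.5 in null arrays, against 35.0, 29.8 and 38.7 in control arrays. The globin gene Hbb-y made up 28.6, 32.2 and 30.1 of these sums in null arrays, against 26.8, 24.3 and 28.2 in control arrays. The median log2 level of the 19 overlapped between the groups (-2.47, -3.09 and -3.56 in null arrays, -3.79, -3.71 and -3.31 in control arrays).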
